A study of Homo sapiens with 6 samples.

Results

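The genes described here encode red cell membrane proteins that carry blood group antigens: KEL (Kell), RHAG, RHCE and RHD (the Rh group), GYPB and GYPE (MNS), GYPC (Gerbich), ERMAP (Scianna) and ICAM4 (Landsteiner-Wiener). They were chosen by name, with earlier results of these data known. Each of the 9 symbols matched 1 of the 58735 genes in the deposited table. RNA was sequenced from SKM-1, a human cell line from acute myeloid leukaemia that the labels call cancer cells, after 48 h with celastrol (3 libraries) or with DMSO (3 libraries). Celastrol is a triterpenoid from the thunder god vine and DMSO is its solvent control; no source used here gives the dose. All 6 libraries come from the 1 cell line. No label ties the libraries to separate cultures, and p-values therefore reflect library-to-library spread that may be technical.

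Blood group antigens are inherited differences in proteins or sugars on the red cell surface. Most of the carrier proteins are made by erythroblasts, where the transcription factors GATA1, KLF1 and TAL1 act at many of their genes. RHAG, RHD and RHCE are related membrane proteins that assemble into the Rh complex; RHAG conducts ammonia and is needed for the others to reach the surface. Glycophorins are sialic acid-rich proteins of the red cell coat, and KEL is a zinc endopeptidase linked at the surface to the protein XK.

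Stretches of promoter from 6 genes are shown. The pairs of related genes share them almost letter for letter. KEL and RHAG had the lowest and the highest log2 fold change of the tested members, and RHAG was not called as deposited. All sequences are from the RefSeq table on GRCh38.p14, end at or before the most upstream RefSeq start of the gene, and are given 5′ to 3′ on the strand of the gene. The table held all 9 genes, with 13 windows of 300 bases.

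RHD (chr1:25272249-25272398, plus strand) and RHCE (chr1:25420936-25421085, minus strand) had the same letters over all 163 aligned bases, so 1 stretch of 150 bases stands for both and holds no capitals. In GYPB (chr4:144019381-144019530, minus strand) and GYPE (chr4:143905601-143905750, minus strand), 4 of 209 aligned bases differed, and capitals mark those that differ within the 150 printed. Counted from the first printed base, GYPB against GYPE, they are C36T and G128A. The pairs were aligned by letters, not by distance from the start. Counted from the most upstream RefSeq start, the stretches lie at -237 to -88 in RHD and -150 to -1 in RHCE. They lie at -150 to -1 in GYPB and -191 to -42 in GYPE.
RHD and RHCE: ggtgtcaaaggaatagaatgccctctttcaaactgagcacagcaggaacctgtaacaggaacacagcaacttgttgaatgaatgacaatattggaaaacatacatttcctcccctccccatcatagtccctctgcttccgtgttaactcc
GYPB: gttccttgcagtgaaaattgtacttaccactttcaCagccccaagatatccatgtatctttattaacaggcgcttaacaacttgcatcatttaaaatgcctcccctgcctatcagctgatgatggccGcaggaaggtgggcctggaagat
GYPE: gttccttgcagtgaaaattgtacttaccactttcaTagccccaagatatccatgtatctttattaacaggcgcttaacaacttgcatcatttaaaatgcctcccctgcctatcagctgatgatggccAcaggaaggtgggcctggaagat

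In KEL (chr7:142962364-142962513, minus strand) and RHAG (chr6:49636840-49636989, minus strand) the 150 bases before the start are shown, with capitals for GATAA or its reverse TTATC, the core bound by GATA factors, and for CACCC or its reverse GGGTG, the core bound by KLF factors.
KEL: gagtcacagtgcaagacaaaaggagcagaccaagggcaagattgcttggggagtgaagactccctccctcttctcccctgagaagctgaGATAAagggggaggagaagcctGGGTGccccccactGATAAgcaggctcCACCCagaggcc
RHAG: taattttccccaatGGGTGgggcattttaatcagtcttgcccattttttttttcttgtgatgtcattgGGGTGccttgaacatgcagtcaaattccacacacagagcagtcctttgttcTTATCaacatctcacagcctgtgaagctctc

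Both strands of each 300-base window, which runs from 250 bases before to 50 after the start, were searched for these 2 motifs, and no match of one overlapped a match of the other. GATAA was found in 11 of the 13 windows of these genes and in 22.7% of all 35116 windows in the table; the windows of RHD and RHCE, and of GYPB and GYPE, are near copies and several genes have overlapping windows, so the 13 are not independent. CACCC was found in 11 of the 13 windows and in 59.9% of all windows. KEL held 2 GATAA matches, with first bases 61 and 25 before the start (positions -61 and -25), and RHAG held 1, at position -31. GYPC, and the upstream window of ERMAP, held no GATAA match. These are matches of letters and were not tested as binding sites.

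Of the 9 genes, 8 had a mean of at least 1 FPKM (fragments per kilobase of gene, scaled to a library total) over the 6 libraries and were tested with limma-trend on log2(FPKM + 0.1) among 12685 genes. KEL, GYPB, ERMAP and GYPC fell with celastrol, by between 1.89-fold and 4.61-fold of mean FPKM, and none rose at a Benjamini-Hochberg adjusted p under 0.05. Lower calls made up 4 of 8 tested members, against a background of 14.2% lower calls and 15.3% higher calls over all genes tested. KEL, GYPB and ERMAP fell by at least 1 on the log2 scale, as did 2.12% of all genes tested. The Rh genes RHAG, RHCE and RHD and the glycophorin GYPE did not pass the test. The median log2 fold change of the 8 was -0.66, and that of all genes tested was 0.02. In bulk RNA, fewer cells of a kind and less RNA per cell cannot be told apart.

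**Figure D1:**
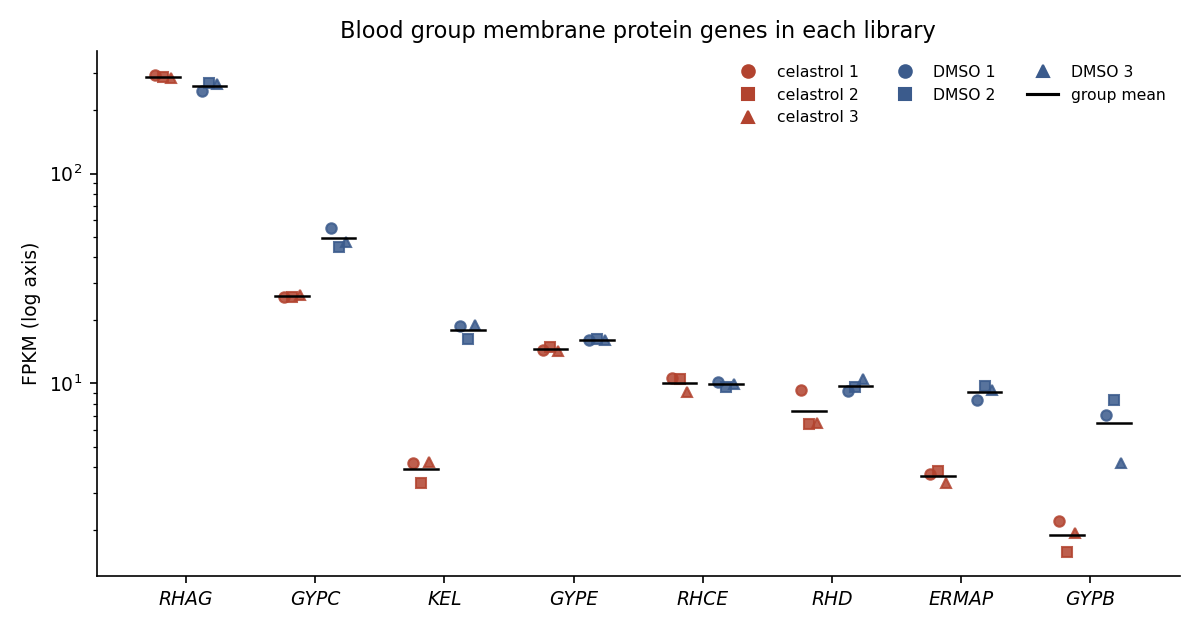
FPKM of the 8 tested genes (log axis) in each celastrol library (red, left of each pair) and each DMSO library (blue, right), with replicate numbers as symbols and group means as bars. KEL, GYPB, ERMAP and GYPC lie apart between the treatments, while RHCE and RHD overlap and RHAG is far above the rest in all 6 libraries.

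KEL (ENSG00000197993; GRCh38 chromosome 7, 142941114 to 142962681, minus strand) had 4.17, 3.36 and 4.21 FPKM in the celastrol libraries and 18.7, 16.3 and 19.1 FPKM in the DMSO libraries. The lowest DMSO library was well above the highest celastrol library. The means were 3.92 ± 0.482 FPKM with celastrol and 18.04 ± 1.48 FPKM with DMSO (SD, n = 3 each), from 222 to 282 reads with celastrol and 875 to 1128 reads with DMSO. Its log2 fold change was -2.18 (SE 0.11, limma-trend adjusted p = 6.50e-05), and 47 of the 12685 tested genes had a lower one. By the root mean square difference of centred log2 values over the 6 libraries, the protein-coding genes closest to KEL among 10071 were MT-CYB (0.0687), the muscle intermediate filament gene DES (0.09997) and the guidance ligand gene SLIT2 (0.123). MT-CYB is a mitochondrial gene, and mitochondrial genes took 1.37% to 1.85% of reads in the celastrol libraries and 5.44% to 5.65% in the DMSO libraries; the part of this in the result was not tested. The nearest protein-coding gene past the 3′ end of KEL, LLCFC1, lies 246 bases away on the opposite strand. LLCFC1 had 6, 3 and 0 reads with celastrol and 29, 14 and 24 with DMSO, and was under the minimum for testing.

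ERMAP (ENSG00000164010; chromosome 1, 42817088 to 42844993, plus strand) is a butyrophilin-like protein of erythroblasts. It had 3.72, 3.84 and 3.36 FPKM with celastrol and 8.36, 9.75 and 9.28 FPKM with DMSO. No libraries overlapped between the treatments, and the mean was 2.51-fold lower with celastrol (log2 fold change -1.30, SE 0.09, limma-trend adjusted p = 0.000159). An antisense gene, AL512353.1, overlaps ERMAP, and 9.40% of the exonic bases of ERMAP lie under exons of other genes on the other strand. AL512353.1 had 1.10 ± 0.239 FPKM with celastrol and 1.41 ± 0.328 FPKM with DMSO (SD, n = 3 each) and did not pass (limma-trend adjusted p = 0.371). SVBP, also on the other strand, overlaps 0.591% of the ERMAP span and fell, with 8.39 ± 1.21 FPKM with celastrol and 13.3 ± 2.30 FPKM with DMSO (SD, n = 3 each; log2 fold change -0.65, limma-trend adjusted p = 0.0144); its part in the ERMAP result was not tested. ZNF691, 1580 bases past ERMAP, did not pass (-0.18, adjusted p = 0.148), and TMEM269, 469 bases before it, was under the minimum for testing. No source used here says if counting used strand, and reads from such overlaps may not be told apart.

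Glycophorin C, GYPC (ENSG00000136732; chromosome 2, 126655933 to 126696670, plus strand), ties the red cell membrane to the skeleton through protein 4.1 and the adaptor MPP1. It had 25.9, 25.8 and 26.4 FPKM with celastrol and 55.0, 44.7 and 47.4 FPKM with DMSO. The celastrol libraries lay close together, the DMSO libraries were more spread, and the groups did not overlap. The mean was 1.89-fold lower with celastrol (log2 fold change -0.91, SE 0.09, limma-trend adjusted p = 0.000518).

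GYPB (ENSG00000250361; chromosome 4, 143996104 to 144019345, minus strand) and GYPE (ENSG00000197465; chromosome 4, 143870867 to 143905563, minus strand) are closely related genes of the same chromosome region. GYPB had 2.20, 1.58 and 1.94 FPKM with celastrol, from 49 to 65 reads, and 7.05, 8.29 and 4.17 FPKM with DMSO, from 116 to 209 reads. DMSO replicate 3 was the lowest of its group and still above every celastrol library. The mean of GYPB was 3.41-fold lower with celastrol (log2 fold change -1.68, SE 0.25, limma-trend adjusted p = 0.00285). GYPE had 14.4, 14.9 and 14.3 FPKM with celastrol and 16.0, 16.3 and 16.0 FPKM with DMSO. These values did not overlap, but the difference was small and did not pass (log2 fold change -0.15, 95% confidence interval -0.30 to -0.01, limma-trend adjusted p = 0.109). Rescaled to TPM (each library scaled to the same sum of per-length values), the GYPE difference was 0.09, so its direction depends on the scaling.

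The promoters of GYPB and GYPE shown above are near copies, and the levels of these genes stood in different ratios in the treatments. The ratio of GYPB to GYPE FPKM was 0.153, 0.106 and 0.135 with celastrol and 0.440, 0.508 and 0.260 with DMSO. Every celastrol ratio was below every DMSO ratio, and the mean log2 ratio differed by -1.58, or between -1.86 and -1.38 with 1 library left out. The two-sided exact permutation p = 0.1 is the smallest that 3 against 3 libraries allow; this ratio was chosen after the values were seen. Of all 75-base windows in GENCODE 29 transcripts, none of GYPE and 6.80% of those of GYPB occurred in another gene. Reads from such windows could be split by the counting, which leaves GYPB less certain, and no source used here says how they were treated.

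**Figure D2:**
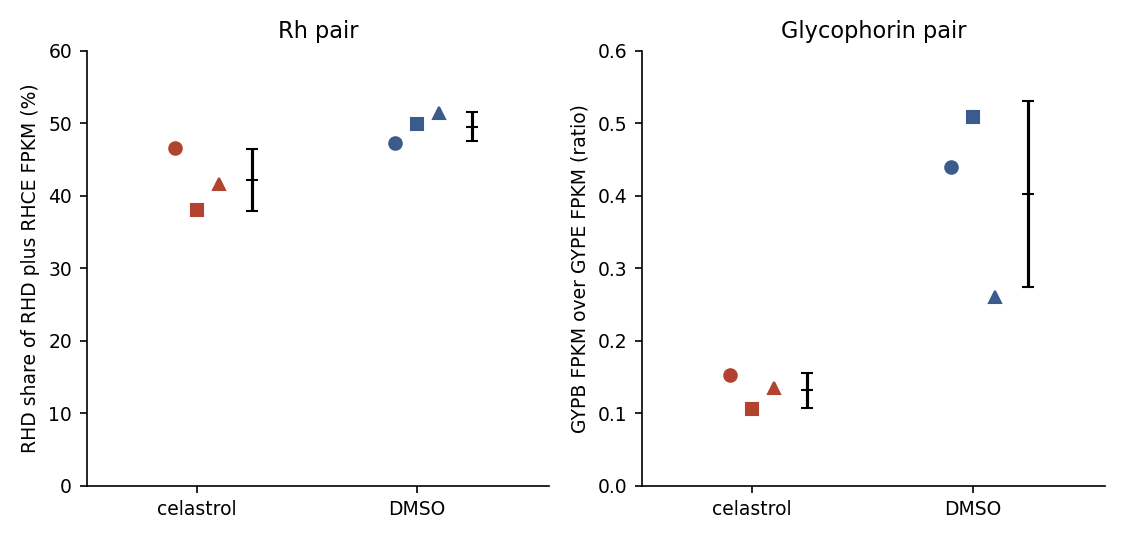
Left, RHD share (%) of RHD plus RHCE FPKM; right, ratio of GYPB to GYPE FPKM, in each celastrol (red) and DMSO (blue) library, with circles, squares and triangles for replicates 1, 2 and 3 and black bars for mean ± SD (n = 3). Celastrol libraries lie below DMSO libraries in both, by a narrow gap on the left where celastrol replicate 1 is at 46.6% and DMSO replicate 1 at 47.3%.

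RHAG (ENSG00000112077; chromosome 6, 49605158 to 49636884, minus strand) was the most abundant of these genes in every library. It had 296, 289 and 284 FPKM with celastrol and 247, 270 and 266 FPKM with DMSO, from 12566 to 12901 reads with celastrol and 9574 to 10657 reads with DMSO. The celastrol libraries all lay above the DMSO libraries, by 1.11-fold of the means. As deposited, the difference did not pass (log2 fold change 0.15, 95% confidence interval -0.002 to 0.30, limma-trend adjusted p = 0.125). It passed as higher under TPM (0.39, adjusted p = 0.00316), when scaled to listed reads (0.25, adjusted p = 0.0232) and with limma-voom on recovered reads (0.25, adjusted p = 0.0121). Under TPM the median of all genes tested was 0.26 on the log2 scale, and under both other settings it was 0.12. Under quantile normalization, where that median was 0.01, the RHAG difference was 0.30 (95% confidence interval 0.07 to 0.53) and did not pass (adjusted p = 0.0549). TPM called 41.5% of all genes higher and 6.41% lower, scaling to listed reads called 23.8% higher and limma-voom 28.8% higher. By centred log2 values, which leave out the level, the 3 protein-coding genes closest to RHAG were DHX15, TRA2B and TMED10. Their root mean square differences were 0.0199, 0.0217 and 0.0219.

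RHCE (ENSG00000188672; chromosome 1, 25362249 to 25430192, minus strand) carries the C, c, E and e antigens. It had 10.6, 10.5 and 9.09 FPKM with celastrol and 10.2, 9.62 and 9.93 FPKM with DMSO, so the groups overlapped throughout. Its log2 fold change was 0.02, with a 95% confidence interval of -0.17 to 0.21 (limma-trend adjusted p = 0.882). The sign turned under quantile normalization and without some libraries, and under TPM RHCE was called higher (0.26, adjusted p = 0.0468).

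RHD (ENSG00000187010; chromosome 1, 25272393 to 25330445, plus strand), the gene of the D antigen, faces RHCE across the gene TMEM50A. It had 9.28, 6.44 and 6.50 FPKM with celastrol and 9.16, 9.57 and 10.5 FPKM with DMSO. Celastrol replicate 1 lay within the DMSO range and the other celastrol libraries below it. The difference did not pass (log2 fold change -0.41, 95% confidence interval -0.75 to -0.07, limma-trend adjusted p = 0.0679). Without celastrol replicate 1 it was called lower, at -0.58 (limma-trend adjusted p = 0.00842).

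RHD made up 46.6%, 38.1% and 41.7% of RHD plus RHCE FPKM with celastrol and 47.3%, 49.9% and 51.4% with DMSO. The share averaged 42.1 ± 4.29% in celastrol libraries and 49.5 ± 2.05% in DMSO libraries (n = 3 each, SD; two-sided exact permutation p = 0.1, the smallest possible here). The celastrol shares were all lower, the nearest pair by less than the spread within either treatment. Without celastrol replicate 1 or with any other library left out, the difference stayed between -9.67 and -5.40 percentage points. Of the 75-base transcript windows, 10.3% of those of RHD occurred in RHCE and 13.3% of those of RHCE in RHD; reads from such windows cannot be assigned to either gene by sequence. The whole span of RHD lies inside that of RSRP1 on the other strand, with 1.42% of RHD exonic bases under exons of that gene; RHCE has 4.64% under exons of TMEM50A and other genes. RSRP1 was lower with celastrol (log2 fold change -0.38, limma-trend adjusted p = 0.0110) and TMEM50A higher (0.62, limma-trend adjusted p = 0.000554). SYF2, on the far side of RHD, was lower (-0.38, adjusted p = 0.0274), MACO1, 666 bases from RHCE, was higher (0.40, adjusted p = 0.0168), and the pseudogene SDHDP6 inside RHD did not pass (-0.51, adjusted p = 0.252).

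ICAM4 (ENSG00000105371; chromosome 19, 10286967 to 10288522, plus strand), an adhesion protein that binds integrins, was listed at 0 in all 6 libraries and was not tested. A count of 0 allows up to 3 reads, or 0.125 to 0.133 FPKM in the celastrol libraries and 0.141 to 0.156 FPKM in the DMSO libraries, for counting error alone. All of its exonic bases lie under an exon of the antisense gene AC011511.5. Of 18 protein-coding genes with every exonic base under exons of the other strand, 17 were listed at 0 reads in all libraries. ICAM4 is itself among the 18 and the 17. Of 11097 protein-coding genes with no such overlap on either strand, 22.25% were at 0. The 0 of ICAM4 therefore cannot be read as a level. AC011511.5 had 6, 2 and 3 reads with celastrol and 12, 10 and 6 reads with DMSO. The neighbouring family members ICAM1, 352 bases before ICAM4, and ICAM5, 1459 bases after it, were both detected. ICAM1 had 22.0 ± 0.612 FPKM with celastrol and 22.4 ± 1.62 FPKM with DMSO, and ICAM5 had 30.8 ± 2.89 FPKM with celastrol and 38.0 ± 3.15 FPKM with DMSO (SD, n = 3 each).

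Ordered by mean FPKM with celastrol, the genes ran RHAG, GYPC, GYPE, RHCE, RHD, KEL, ERMAP and GYPB. With DMSO the order was RHAG, GYPC, KEL, GYPE, RHCE, RHD, ERMAP and GYPB. With celastrol, RHCE and RHD overlapped over their libraries, as did KEL and ERMAP. In the DMSO libraries RHCE overlapped RHD and RHD overlapped ERMAP, and the other neighbours in either order did not overlap. RHAG was 11.1-fold above GYPC with celastrol and 5.33-fold above it with DMSO. FPKM is scaled to gene length. Reads lost to overlapping genes or shared windows may differ between genes, so the order of genes close in level is uncertain.

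Of the remaining nearest or overlapping genes, OR9A2 beside KEL, C6orf141 and CRISP2 beside RHAG, CNTNAP5 and TEX51 beside GYPC and FREM3 beside GYPE had at most 2 reads in any library. AL031284.1 within RHCE had at most 4, AC013474.1 within GYPC at most 6, and AC139713.2, which spans GYPB and GYPE on the other strand, from 11 to 25.

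Over all libraries, 6 of the 8 tested members had no overlap between the treatments (5 lower and RHAG higher with celastrol), against a background of 47.3% of genes tested. The calls of KEL, GYPB, ERMAP and GYPC held under each of 15 other settings, with log2 fold changes from -2.25 to -1.95 for KEL, -1.96 to -1.33 for GYPB, -1.36 to -1.08 for ERMAP and -0.97 to -0.67 for GYPC.

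**Figure D3:**
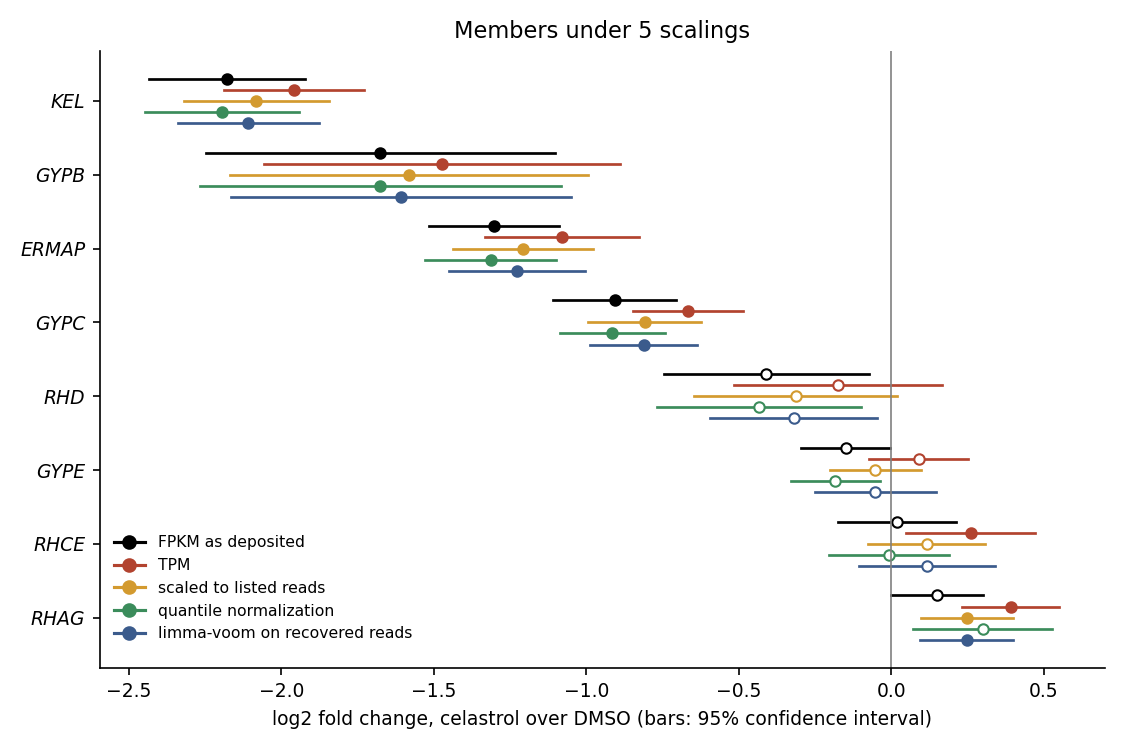
Log2 fold change of celastrol over DMSO (points) with 95% confidence intervals (bars) for each tested gene under 5 scalings or tests, filled where the adjusted p is under 0.05. KEL, GYPB, ERMAP and GYPC are filled in all 5, RHAG in 3 and RHCE under TPM alone, and the GYPE points lie below 0 in 4 and above it under TPM.

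Other carriers of blood group antigens were called in both directions. Of 30 listed genes 18 were tested, and 6 fell and 2 rose (median log2 fold change -0.20). The background over all genes tested was 14.2% lower and 15.3% higher, so the 2 that rose do not exceed it. The anion exchanger SLC4A1, carrier of the Diego antigens, had the lowest log2 fold change of those tested (-2.76, limma-trend adjusted p = 0.000819), with 0.347 ± 0.0685 FPKM with celastrol and 2.98 ± 0.819 FPKM with DMSO (SD, n = 3 each). It had 22 to 35 reads in the celastrol libraries and met the minimum mean of 1 FPKM only through the DMSO libraries. The transporter ABCC4, the mechanosensitive channel PIEZO1 and the complement regulator CD55 fell at log2 fold changes of -0.61, -0.55 and -0.46. The prion protein gene PRNP rose by 0.55. SMIM1 fell (-0.43) and SEMA7A rose (0.35); these were named after their values were seen. The most abundant carriers were BSG, at 194 ± 5.41 FPKM with celastrol and 218 ± 22.2 FPKM with DMSO, and EMP3, at 107 ± 8.25 FPKM with celastrol and 104 ± 7.05 FPKM with DMSO, and neither passed (SD, n = 3 each; limma-trend adjusted p = 0.192 and 0.782). Rescaled to TPM, 3 carriers were lower and 7 higher. TPM called 6.41% of all genes tested lower and 41.5% higher, so the 7 that rose do not exceed that share.

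Of 9 glycosyltransferase genes linked to blood group sugars 3 were tested, and all 3 were called, against 14.2% lower and 15.3% higher over all genes tested. FUT1, which makes the H antigen, fell by 0.77 on the log2 scale and ABO fell by 0.62. GBGT1, the gene linked to the Forssman sugar, rose by 0.70 (limma-trend adjusted p = 0.00598 for FUT1, 0.00639 for ABO and 0.00285 for GBGT1). ABO had 6.55 ± 0.783 FPKM with celastrol and 10.1 ± 0.978 FPKM with DMSO (SD, n = 3 each).

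Membrane partners and anchors of these proteins had 11 of 12 genes tested, with a median log2 fold change of -0.30. The background over all genes tested was 14.2% lower and 15.3% higher, and in this list 5 were lower and 0 higher by limma-trend. SLC4A1 is among them, with the skeleton genes ADD2 (-1.58), SPTB (-1.47) and TMOD1 (-1.10) and the GYPC adaptor MPP1 (-0.45). SLC4A1 met the minimum for testing only through the DMSO libraries. MPP1 had 73.6 ± 4.96 FPKM with celastrol and 100.5 ± 3.65 FPKM with DMSO. The other member of highest level, ANK1, which anchors the Rh complex and SLC4A1, had 29.1 ± 2.21 FPKM with celastrol and 36.0 ± 4.26 FPKM with DMSO (SD, n = 3 each) and did not pass (limma-trend adjusted p = 0.0615). Among the 5 members not called higher or lower besides ANK1 were CD47, of the Rh complex, and EPB41, protein 4.1, at -0.02 and -0.09; they were named after their values were seen.

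Relatives of these proteins had 9 of 18 genes tested, with 2 lower, ICAM5 among them, the butyrophilin BTN2A1 higher (0.45) and 6 not called. These counts are close to the background of 14.2% lower and 15.3% higher over all genes tested. The ICAM5 call (limma-trend adjusted p = 0.0486) was close to the threshold, and the lower calls of this list ran from 0 to 3 over the other settings. ICAM1 did not pass (adjusted p = 0.831). The Rh relatives RHBG and RHCG, ammonia channels of kidney and other epithelia, were listed at 0 in all libraries; they were named after their values were seen.

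Erythroid regulators had 11 of 12 genes tested, of which 8 fell and 0 rose by limma-trend (median log2 fold change -0.59). The background over all genes tested was 14.2% lower and 15.3% higher. Under each of the 15 other settings 8 regulators were lower, with up to 3 called higher under TPM. TPM called 41.5% of all genes tested higher, so the 3 do not exceed that share. KLF1 had 44.1 ± 7.29 FPKM with celastrol and 104 ± 8.03 FPKM with DMSO, and GATA1 had 111 ± 14.95 FPKM with celastrol and 158 ± 3.72 FPKM with DMSO (SD, n = 3 each). The repressor GFI1B (-0.98), the adaptor LMO2 (-0.82), the erythropoietin receptor gene EPOR (-0.70) and the factors NFE2 (-0.59) and MYB (-0.59) also fell. NFE2 had 78.4 ± 10.1 FPKM with celastrol and 118 ± 8.10 FPKM with DMSO. TAL1 (0.09), ZFPM1 (0.14) and IKZF1 (0.15), named after their values were seen, did not pass.

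**Figure D4:**
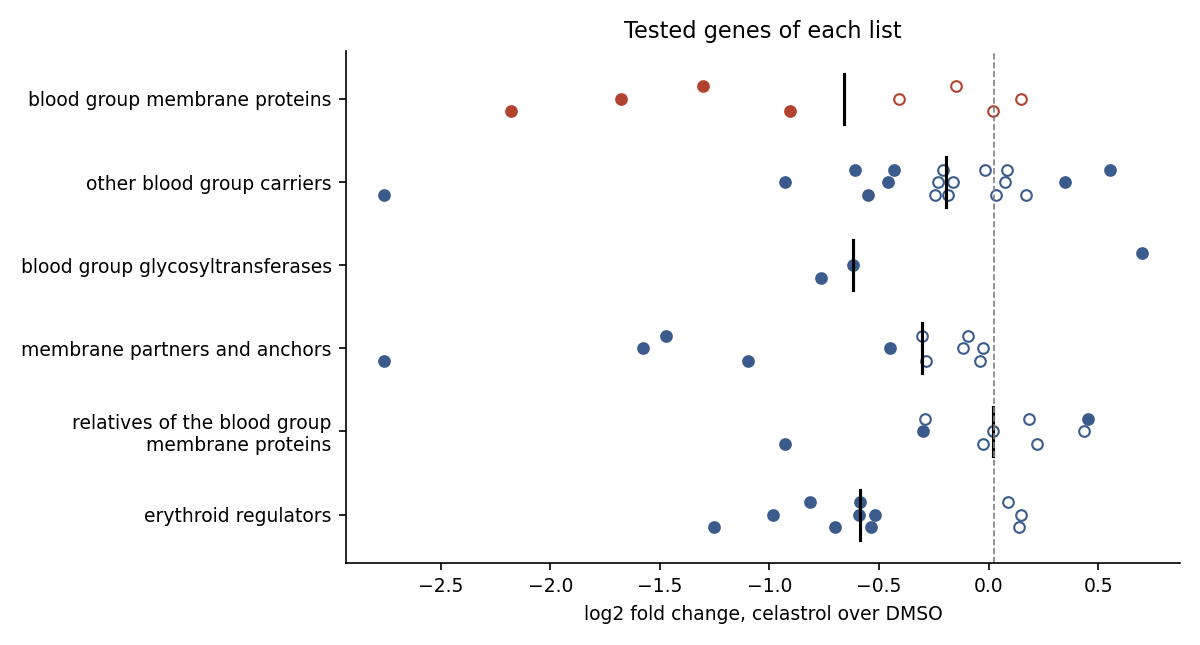
Log2 fold change of celastrol over DMSO for each tested gene of the blood group membrane proteins (red) and of 5 related lists (blue), filled where called at an adjusted p under 0.05, with the list median as a black bar and the median of all genes tested (0.02) dashed. The blood group membrane proteins split into 4 filled points at or below -0.91 and 4 open points from -0.41 to 0.15.

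Of the whole series, recovered reads ran from 15231742 to 16231066 per celastrol library and from 13549187 to 15410904 per DMSO library. As deposited, 1947 genes were higher and 1797 lower; there were 5266 higher and 813 lower under TPM, 3024 and 1295 when scaled to listed reads, and 3650 and 1465 with limma-voom. Leaving out single libraries lowered these counts most for celastrol replicate 2 (1128 higher, 1129 lower), DMSO replicate 3 (1125 higher, 987 lower) and celastrol replicate 3 (1228 higher). For the marker counts that follow, the background over all genes tested was 14.2% lower and 15.3% higher. Erythroid markers were called lower in 7 of 10 tested genes, and their summed level was 257 to 294 FPKM with celastrol and 332 to 388 FPKM with DMSO. The transferrin receptor gene TFRC, one of them, had 179 ± 8.39 FPKM with celastrol and 177 ± 21.01 FPKM with DMSO (SD, n = 3 each) and did not pass (limma-trend adjusted p = 0.874). Beta globin, HBB, was near 0 in both treatments (0.126 ± 0.0752 FPKM with celastrol and 0.0362 ± 0.0314 FPKM with DMSO; SD, n = 3 each). The other listed globin genes were well above it. HBA1, HBA2 and HBZ were called lower, with means of 7.93, 16.4 and 8.58 FPKM with celastrol and 20.8, 46.4 and 32.5 FPKM with DMSO. HBG1 and HBG2 were not called, with means of 23.0 and 30.7 FPKM with celastrol and 28.4 and 25.5 FPKM with DMSO. Myeloid markers were called lower in 3 of 6 tested genes of 12 listed. They summed to 50.3 to 55.6 FPKM with celastrol and 71.3 to 83.0 FPKM with DMSO. The myeloid enzyme gene MPO was between 0 and 0.0337 FPKM over all libraries. The most abundant were LYZ, called lower (means of 17.6 FPKM with celastrol and 38.0 FPKM with DMSO), and SPI1, not called (22.3 and 17.9 FPKM). LYZ, SPI1 and the globin genes other than HBB were named after their values were seen. Megakaryocyte markers (2 of 3 tested lower, GP9 and PF4 at 0 throughout) summed to 4.83 to 5.73 FPKM with celastrol and 7.29 to 8.64 FPKM with DMSO, and lymphoid markers (2 of 3 tested higher, MS4A1 at 0 throughout) to 15.6 to 16.1 FPKM with celastrol and 8.54 to 10.5 FPKM with DMSO. Stromal and epithelial markers had 2 higher and 2 lower of 5 tested, at 295 to 330 FPKM with celastrol and 266 to 304 FPKM with DMSO. Of the called markers, AHSP, SLC4A1 and ITGA2B met the minimum for testing only through the DMSO libraries, and NKG7 only through the celastrol libraries. The part of any of these markers in the results above was not tested.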

How the data were processed

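The deposited table holds FPKM per gene in each library beside its length and position. The submitters' processing notes name the build GRCh38 (hg38), featureCounts 1.5.0-p3 and HISAT2 2.0.5; no source used here gives settings, strand use or the library total. All 58735 identifiers and positions matched GENCODE 29. Values multiplied by gene length came out as whole reads, to within 0.001, for 100% of nonzero values. The total the authors divided by was 1.04 to 1.05 times the listed reads with celastrol and 0.963 to 0.994 times with DMSO, so the deposited FPKM lower celastrol relative to scaling by listed reads. In every DMSO library this total was under the listed reads, so it was not their plain sum. How it was set is not given by any source used here.

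Sample titles gave the groups and replicate numbers. Genes with a mean of at least 1 FPKM were tested with limma 3.58.1 in R 4.3.3 (limma-trend, log2(FPKM + 0.1), treatment as the term, two-sided, Benjamini-Hochberg over all genes tested, threshold 0.05), which understates folds of low genes. Means with SD and folds of means are of FPKM itself. The steps were tested on simulated counts. Libraries of a treatment differed beyond sampling noise (chi-square per gene 4.01 to 13.4), so none repeats another. Promoters are from RefSeq, GRCh38.p14. The members and lists were chosen with earlier results of these data known. Named by rule were all members, up to 6 called genes of largest change and the 2 most abundant of each list, the 3 genes closest to KEL and to RHAG, and neighbours of members. A gene counted in these lists is not reported by name here.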

Additional observations from a re-analysis of the deposited data

How the results depend on the processing

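KEL, GYPB, ERMAP and GYPC kept their direction and call under all 15 other settings. Members called higher, 0 as deposited, were 2 under TPM and 1 when scaled to listed reads or with limma-voom on recovered reads, the last chosen after seeing the data; these settings moved the median of all genes tested from 0.02 to between 0.12 and 0.26 on the log2 scale. At an unadjusted limma-trend p under 0.05, as deposited, none of the members was higher and 6 were lower, with RHD and GYPE added to the 4 called. The share of all genes tested that passed at this threshold was not counted, so the 6 cannot be set against a background. Genes called higher, 1947, became 5266 under TPM, 3024 scaled to listed reads and 3650 with limma-voom, and genes called lower, 1797, became 813 under TPM. Leaving out 1 library gave 1125 to 1937 higher and 987 to 1767 lower genes, 4 to 5 members lower and 0 higher. RHCE, which was not called, reversed to -0.00741 under quantile normalization. With 1 library left out it ran from -0.0220 to 0.0894, and it was negative without celastrol replicate 1 (-0.0220), celastrol replicate 2 (-0.0115) or DMSO replicate 2 (-0.00275). GYPE reversed to 0.0902 under TPM. The causes of these reversals were not tested. The counts of the 5 related lists stayed within 1.5 times in 127 of 150 comparisons and moved further in 23. With 2 libraries in a treatment, the smallest exact p for the RHD share is 0.2.

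The replicate numbers were not taken to pair the libraries: deviations of same-numbered libraries correlated at -0.0156, -0.0326 and 0.0339, and not every library correlated best with its own number. With the replicate number as a block there were 4 members lower, 1617 genes lower and 1776 higher, and no member changed its call. The planned edgeR and DESeq2 fits were not run, because the deposited unit is FPKM; limma-voom was used on the recovered reads instead. GYPB rests on 49 to 209 reads per library, the fewest of the tested members, and had the widest standard error (0.25 on the log2 scale).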
